A study of Homo sapiens with 6 samples.

Results

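Transcripts of 10 genes of the Notch pathway were followed across 6 microarrays of RD18, an established cell line from embryonal rhabdomyosarcoma. That tumour of soft tissue resembles immature skeletal muscle. The genes were taken by name (the receptors NOTCH1, NOTCH2 and NOTCH3, the ligands JAG1, JAG2 and DLL1, and the transcription factors HES1, HES6, HEY1 and HEYL), and each was read from the brightest row annotated to it alone. They were chosen with earlier results of these data known. All 10 were measured, out of 18417 genes with such a row, and each had 1 row. The NpBI-22 derivative of RD18 (miR-22 cells below) was given doxycycline at 1 µg/ml for 6 days to switch on miR-22 (induced, 2 arrays) or was left untreated (non-induced, 2 arrays). The NpBI-206AS derivative, an additional control of the study, was given the same doxycycline for 6 days (1 array) or was left untreated (1 array). What the NpBI-206AS construct makes is not said in the labels, nor whether either derivative is a single clone, and no culture of the parental line was used here.

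Notch receptors sit in the cell membrane and are switched on by ligands of the Jagged and Delta families on neighbouring cells. Ligand pulling exposes the receptor to an ADAM protease and then to gamma-secretase, which frees its intracellular part. In the nucleus that part joins the DNA-binding protein RBPJ and Mastermind coactivators, displaces corepressors, and turns on genes such as HES1, HEY1 and HEYL. In skeletal muscle the pathway is known for keeping progenitor cells undifferentiated.

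Of the 10 genes, JAG1 rose on miR-22 induction, that is, in induced over non-induced miR-22 cells. HES1, JAG1 and HEYL rose when the induced miR-22 arrays were set against all 4 control arrays together. Those 4 arrays pool 2 lines, with and without doxycycline, so this comparison also holds differences between the lines. Non-induced miR-22 cells minus non-induced NpBI-206AS cells gave 0.60 for HES1, 0.50 for HEYL and -0.09 for JAG1 on the log2 scale. Within miR-22 cells HES1 and HEYL did not pass. None fell in either comparison. The receptors passed in neither, and the other genes are given with their values below. RBPJ binds a short core written TGGGAA, preferred as GTGGGAA. For the 3 genes that rose, the 250 bases before the gene start are shown from RefSeq (build GRCh38.p14), on the strand of the gene, with the core in capitals on either strand (TTCCCA where it lies on the opposite one).
HES1 (chr3:194135898-194136147, plus strand): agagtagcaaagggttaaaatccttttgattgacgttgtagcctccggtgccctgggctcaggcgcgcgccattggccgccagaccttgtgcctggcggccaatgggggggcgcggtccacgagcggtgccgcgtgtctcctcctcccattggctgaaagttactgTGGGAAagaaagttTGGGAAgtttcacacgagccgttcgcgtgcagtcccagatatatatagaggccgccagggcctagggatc
HEYL (chr1:39639644-39639893, minus strand): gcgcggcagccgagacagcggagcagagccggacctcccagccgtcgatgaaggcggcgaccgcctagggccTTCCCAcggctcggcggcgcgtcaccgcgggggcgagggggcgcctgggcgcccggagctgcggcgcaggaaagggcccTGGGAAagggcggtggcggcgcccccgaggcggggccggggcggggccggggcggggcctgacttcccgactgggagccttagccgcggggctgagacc
JAG1 (chr20:10674000-10674249, minus strand): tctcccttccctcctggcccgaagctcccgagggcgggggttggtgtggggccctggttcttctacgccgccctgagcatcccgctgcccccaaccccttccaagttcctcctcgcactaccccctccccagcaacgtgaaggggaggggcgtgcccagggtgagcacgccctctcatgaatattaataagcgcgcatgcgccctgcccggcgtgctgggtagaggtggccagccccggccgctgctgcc
HES1 held the core 2 times, starting 84 and 70 bases before the gene start, both on its own strand. HEYL held it 2 times, on the opposite strand starting 178 bases and on its own strand starting 99 bases before the start. In both genes the more distant core was also a match to GTGGGAA, and JAG1 held neither. Of 35116 RefSeq windows of 250 bases, 20.8% held TGGGAA on either strand and 2.9% held it 2 or more times, while 5.43% held GTGGGAA. Among the members, 8 of 10 were matched in the promoter table, and the 2 with a core were HES1 and HEYL. A match is a stretch of letters and not a measured binding site.

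The microRNA that was switched on is shown with its seed, bases 2 to 8, in capitals, because the seed sets which mRNAs it can pair with. The labels do not say which of its mature forms was made in excess, so both RefSeq sequences are given.
hsa-miR-22-3p (chr17:1713914-1713935, minus strand): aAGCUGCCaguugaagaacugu
hsa-miR-22-5p (chr17:1713952-1713973, minus strand): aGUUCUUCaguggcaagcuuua
The mRNA sequences in which a seed match would be sought were not used here.

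Values are log2 expression, so a difference of 1 is 2-fold. Tests are limma's, adjusted by Benjamini-Hochberg over all 33297 rows, and a gene is said to rise or fall only where its adjusted p is under 0.05. The host gene of miR-22, MIR22HG, read 10.02 and 10.01 in induced against 6.27 and 6.72 in non-induced miR-22 cells, and 6.32 in induced and 6.41 in non-induced NpBI-206AS cells. Array medians lay between 5.66 and 5.75 and lower quartiles between 3.92 and 4.01. No member read below the lower quartiles on any array. The lowest member value was that of HES1 in non-induced NpBI-206AS cells, 5.7024, just below that array's median of 5.7085. The number of arrays limits the precision. The sample codes begin with R715 on both induced miR-22 arrays and on no other, with R509 on non-induced replicate 1, and with R587 on both NpBI-206AS arrays and non-induced replicate 2. The labels do not explain the code; if it marks a batch, batch and miR-22 induction cannot be told apart in any value below. Of the marker lists of other cell types, limma called 0 of 5 endothelial, 0 of 4 blood, 0 of 5 epithelial and 0 of 4 neural genes on miR-22 induction. At an unadjusted p under 0.05 there were 1 endothelial, 1 blood, 0 epithelial and 1 neural gene, beside 12.1% of all genes higher and 9.12% lower. Against all 4 control arrays 7.78% of all genes were called higher and 6.31% lower. There 1 neural gene, NES, fell (-0.82, SE 0.19, limma adjusted p = 0.03) and 0 genes of the other 3 lists were called. Their part in the results was not tested. The summed linear level of the epithelial genes was 1660 and 1581 on the induced against 1413 and 1121 on the non-induced miR-22 arrays, and 1364 in induced against 1287 in non-induced NpBI-206AS cells. Most of it came from KRT18, which read 10.56 and 10.48 on the induced against 10.32 and 9.93 on the non-induced miR-22 arrays. EPCAM, CDH1, KRT5 and KRT8 read at most 3.95, 4.22, 4.84 and 7.07 on any array. The summed linear level of the neural genes was 455.1 and 394.0 on the induced against 588.2 and 831.0 on the non-induced miR-22 arrays, and 712.0 in induced against 583.5 in non-induced NpBI-206AS cells. Most of it came from NES, which read 8.48 and 8.22 on the induced against 8.93 and 9.51 on the non-induced miR-22 arrays. SOX2, DCX and GFAP read at most 4.77, 4.40 and 5.85 on any array. The sums of the endothelial and blood genes ran from 240.8 to 287.2 and from 75.8 to 92.6 over all arrays, and their defining markers PECAM1 and PTPRC read at most 4.41 and 3.003 on the log2 scale. The endothelial list also holds TEK, which read 7.43 and 7.44 on the induced against 7.33 and 7.58 on the non-induced miR-22 arrays, and 7.40 in induced against 7.78 in non-induced NpBI-206AS cells.

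Among the ligands, which present the signal to neighbouring cells, JAG1 rose, while JAG2 and DLL1 did not pass. JAG1 read 8.79 and 8.97 on the induced against 8.04 and 7.90 on the non-induced miR-22 arrays, and 8.05 in induced against 8.06 in non-induced NpBI-206AS cells. Both induced miR-22 arrays lay above all 4 controls, which lay within a narrow band with an SD of 0.078. JAG1 was 1.88-fold higher on miR-22 induction (log2 difference 0.91, SE 0.16, 95% confidence interval 0.51 to 1.31, limma adjusted p = 0.048). Against all 4 control arrays the difference was 0.87 (SE 0.12, adjusted p = 0.0044). Of all genes, 1.73% were called higher and 1.53% lower in the first of these comparisons, and 7.78% higher and 6.31% lower in the second. With 1 of the 4 miR-22 arrays left out, the first difference stayed between 0.82 and 1.00. Such fits leave 1 array in a group, and whether the call holds could not be tested by them.

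JAG2, the other Jagged ligand, read 7.43 and 7.10 in induced against 7.93 and 7.73 in non-induced miR-22 cells. In NpBI-206AS cells it read 7.69 with and 7.43 without doxycycline. Both induced miR-22 arrays thus lay below both non-induced ones, but the non-induced NpBI-206AS array was level with induced replicate 1. The difference in miR-22 cells was -0.57 (SE 0.19, interval -1.03 to -0.10, limma adjusted p = 0.16) and did not pass. DLL1, a ligand of the Delta family, read 7.41 and 7.24 in induced against 6.62 and 7.13 in non-induced miR-22 cells, and 7.003 in induced against 6.79 in non-induced NpBI-206AS cells. Both induced miR-22 arrays were the highest of the 6, yet the 2 non-induced miR-22 arrays lay 0.51 apart. The difference of 0.45 (SE 0.22, interval -0.085 to 0.99, adjusted p = 0.31) did not pass.

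**Figure D1:**
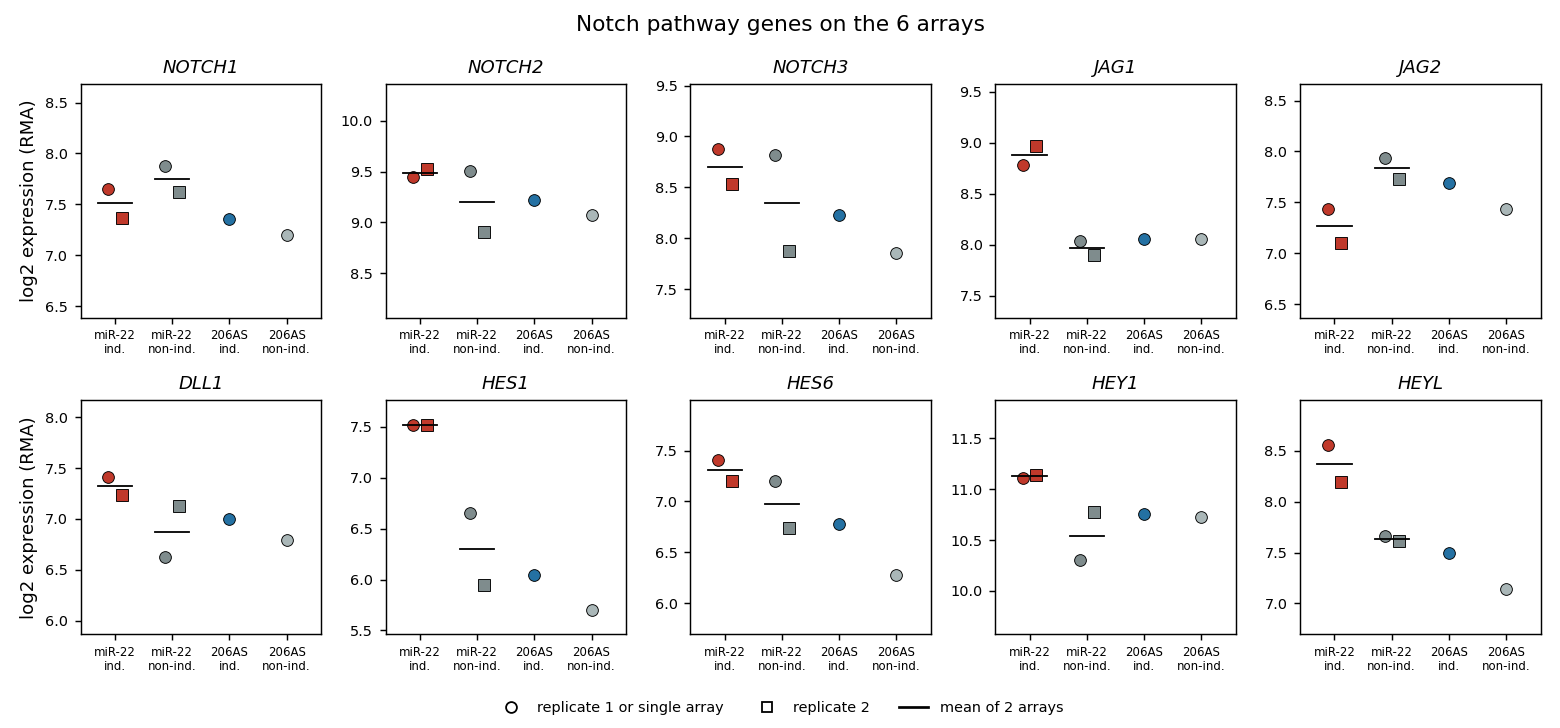
Log2 expression (RMA values as deposited) of each of the 10 genes on the 6 arrays, with 1 point per array, the groups along the x axis and a line at the mean of each pair of miR-22 arrays; every panel spans the same height on its own range. JAG1, DLL1, HES1, HEY1 and HEYL had both induced miR-22 arrays above the other 4, and NOTCH3 shows the widest gap between the non-induced replicates, 0.94.

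For the 3 receptors, which receive the signal, the differences on miR-22 induction were smaller than the gap between the non-induced replicates. NOTCH1 read 7.65 and 7.37 in induced against 7.87 and 7.62 in non-induced miR-22 cells, and 7.35 in induced against 7.20 in non-induced NpBI-206AS cells. The arrays of the miR-22 groups overlapped, and the difference was -0.24 (SE 0.18, interval -0.69 to 0.22, limma adjusted p = 0.53). NOTCH2 read 9.45 and 9.53 in induced against 9.51 and 8.90 in non-induced miR-22 cells, and 9.22 in induced against 9.07 in non-induced NpBI-206AS cells. Non-induced replicate 1 lay level with the induced arrays, and the difference was 0.28 (SE 0.23, interval -0.29 to 0.86, adjusted p = 0.56). NOTCH3 read 8.88 and 8.53 in induced against 8.82 and 7.88 in non-induced miR-22 cells, and 8.23 in induced against 7.86 in non-induced NpBI-206AS cells. Its difference of 0.36 (SE 0.33, interval -0.47 to 1.19, adjusted p = 0.61) stood beside a gap of 0.94 between the non-induced replicates. Against non-induced replicate 2 alone the NOTCH3 difference was 0.83, and against replicate 1 alone it was -0.12. For NOTCH2 these values were 0.58 and -0.018. Signal shared with the NOTCH2NL copies of NOTCH2 cannot be told apart from NOTCH2 here, since probe sequences were not used.

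The 4 HES and HEY genes encode transcription factors, and HES1, HEY1 and HEYL are known targets of the receptors. All 4 were higher on average in induced miR-22 cells. HES1, the classical Notch target, read 7.52 on both induced arrays against 6.65 and 5.95 on the non-induced miR-22 arrays, and 6.05 in induced against 5.70 in non-induced NpBI-206AS cells. It was 2.34-fold higher on miR-22 induction, the widest difference of the 10 genes. With the non-induced replicates 0.70 apart, that difference of 1.22 (SE 0.25, interval 0.59 to 1.86) had a limma adjusted p of 0.064 and did not pass. Against all 4 control arrays HES1 rose by 1.44 (SE 0.24, interval 0.87 to 2.00, adjusted p = 0.0094). Without induced replicate 1 that adjusted p was 0.09, and without replicate 2 it was 0.076.

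HEYL, a HEY-family repressor, read 8.56 and 8.19 in induced against 7.66 and 7.61 in non-induced miR-22 cells, and 7.50 in induced against 7.14 in non-induced NpBI-206AS cells. Both induced miR-22 arrays lay above all the others. The difference in miR-22 cells was 0.74 (SE 0.18, interval 0.28 to 1.19, limma adjusted p = 0.09). Against all 4 controls HEYL rose by 0.89 (SE 0.18, interval 0.47 to 1.32, adjusted p = 0.019). Without induced replicate 1 or replicate 2 this adjusted p was 0.16 or 0.058.

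HEY1, which pairs with other basic helix-loop-helix repressors, read 11.11 and 11.14 in induced against 10.30 and 10.77 in non-induced miR-22 cells, and 10.75 in induced against 10.73 in non-induced NpBI-206AS cells. The induced miR-22 arrays were the highest, but the difference of 0.59 (SE 0.20, interval 0.086 to 1.09, limma adjusted p = 0.17) did not pass, nor did that against all controls (0.49, SE 0.16, adjusted p = 0.088). HES6, a relative known in mouse to counteract HES1, read 7.41 and 7.20 in induced against 7.20 and 6.74 in non-induced miR-22 cells, and 6.78 in induced against 6.28 in non-induced NpBI-206AS cells. Non-induced replicate 1 reached the lower induced array, and the HES6 difference was 0.34 (SE 0.21, interval -0.19 to 0.86, adjusted p = 0.43). Without non-induced replicate 1 the induced arrays stood above the 3 remaining controls, which share the code prefix R587. The limma adjusted p there was 0.03 for HES6, 0.032 for HEY1 and 0.023 for NOTCH3, with differences of 0.71, 0.37 and 0.72. In that fit 7463 of all 33297 rows passed, beside 4576 with every array kept. Without non-induced replicate 2 instead, 2641 rows passed. The adjusted p of the 3 genes was then 0.28, 0.13 and 0.47, with differences of 0.55, 0.53 and 0.40.

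**Figure D2:**
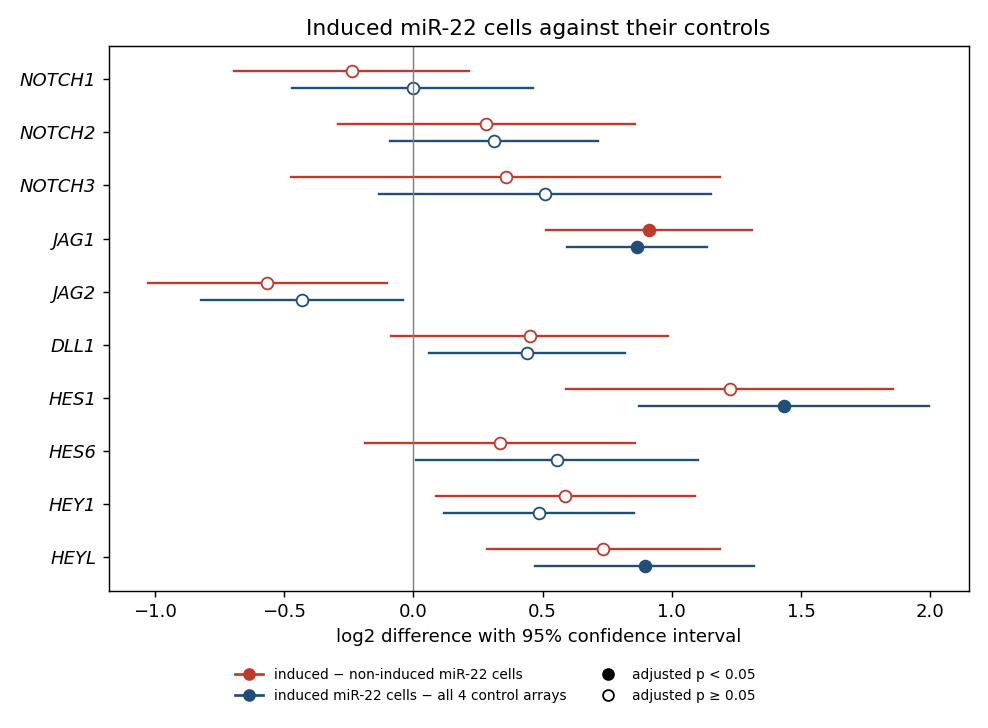
Log2 difference of each gene with its 95% confidence interval from limma, for induced minus non-induced miR-22 cells (red) and for induced miR-22 cells minus the 4 control arrays (blue); filled points have an adjusted p under 0.05. JAG1 is filled in both comparisons, HES1 and HEYL in the comparison with all controls.

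Over the 10 genes, limma called 1 higher and 0 lower on miR-22 induction, beside 1.73% and 1.53% of all genes. Without adjustment, 4 were higher and 1 lower with p under 0.05, beside 12.1% and 9.12% of all genes. The median difference of the 10 was 0.40, beside 0.0072 for all genes. Against all 4 controls 3 were called higher and 0 lower, beside 7.78% and 6.31% of all genes. Without adjustment 6 were higher and 1 lower in that comparison, beside 15.7% and 12.9% of all genes. The median was 0.50, beside 0.030 for all genes. Both induced miR-22 arrays lay above both non-induced ones for 5 of the 10 genes and below them for 1, JAG2, while this held for 27.9% and 24.5% of all genes. They lay above all 4 controls for the same 5 genes (JAG1, DLL1, HES1, HEY1 and HEYL) and below them for 0, while this held for 22.1% and 17.2% of all genes. These comparisons share the induced arrays and are not independent of each other. Because the 10 genes and all lists were chosen with earlier results of these data known, their counts and medians are descriptions and no test of the pathway. In bulk RNA, fewer cells carrying a transcript and less transcript per cell cannot be told apart.

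The other line was also given doxycycline, so its response holds the drug and any product of its construct together. In NpBI-206AS cells, where each condition had 1 array and differences are given without a test, 0 of the 10 genes differed 2-fold or more between the induced and the non-induced array, beside 0.109% of all genes. The induced array was nonetheless the higher one for 9 of the 10 genes, beside 50.7% of all genes, with a median difference of 0.24. The widest were those of HES6 (0.50), NOTCH3 (0.37), HEYL (0.36) and HES1 (0.35). JAG1 and HEY1 differed by -0.0028 and 0.024, and the signs of both turned with the scaling of the arrays.

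Set against induced NpBI-206AS cells, so that both sides had doxycycline, the induced miR-22 arrays were higher by 1.48 for HES1 (SE 0.31, interval 0.70 to 2.25, limma adjusted p = 0.12). HEYL was higher by 0.88 (SE 0.22, interval 0.32 to 1.43, adjusted p = 0.16) and JAG1 by 0.82 (SE 0.20, interval 0.33 to 1.31, adjusted p = 0.14). Of the 10 genes, 0 passed in limma, which called 0.168% of all genes higher and 0.076% lower. Without adjustment 3 were higher and 0 lower, beside 7.82% and 6.93% of all genes. The lone NpBI-206AS array is assumed here to vary like the miR-22 replicates, and the lines differ in this comparison as well.

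Whether the lines responded differently was also tested. The response of miR-22 cells minus that of NpBI-206AS cells was 0.91 for JAG1 (SE 0.28, interval 0.22 to 1.60, limma adjusted p = 0.46) and 0.88 for HES1 (SE 0.44, interval -0.22 to 1.97, adjusted p = 0.63). For HEYL it was 0.38 (SE 0.31, interval -0.40 to 1.16, adjusted p = 0.80) and for HEY1 0.56 (SE 0.35, interval -0.30 to 1.43, adjusted p = 0.71). Limma called 0 rows in this contrast over the whole table, against 2957 without adjustment. Of the 10 genes, JAG1 was higher and JAG2 lower without adjustment, beside 4.76% and 3.26% of all genes.

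**Figure D3:**
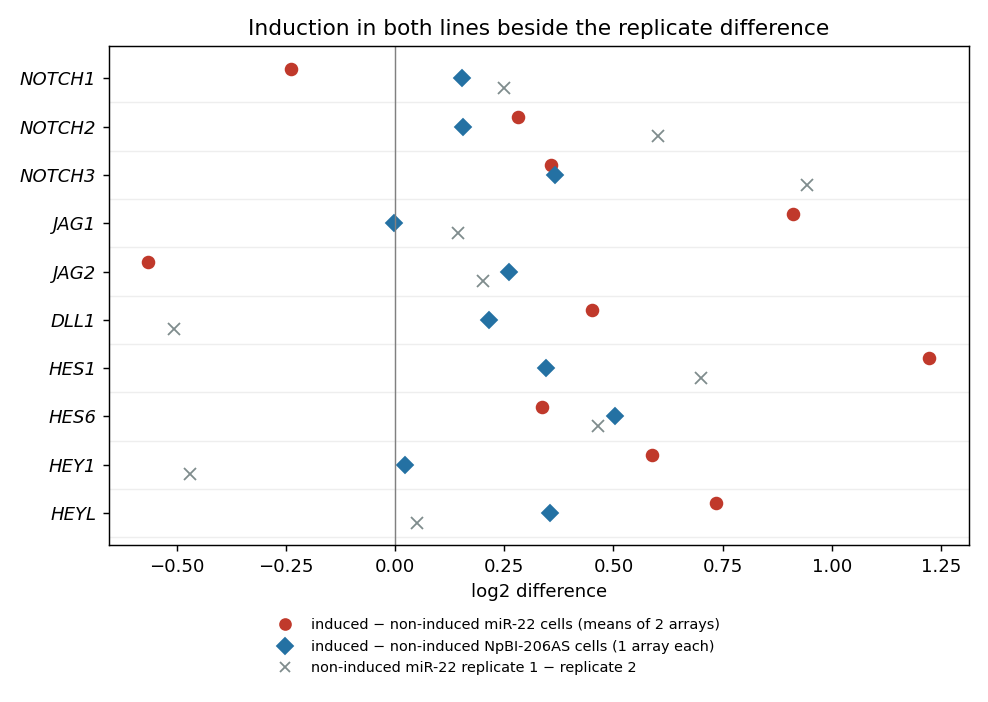
Log2 difference of each gene on miR-22 induction (red circles), between induced and non-induced NpBI-206AS cells (blue diamonds, 1 array each) and between the 2 non-induced miR-22 replicates (grey crosses). JAG1 and HEYL have a red circle far beyond the grey cross, whereas for NOTCH1, NOTCH2, NOTCH3, DLL1 and HES6 the cross lies farther from 0 than the circle.

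Levels without doxycycline are compared for 2 miR-22 arrays and 1 NpBI-206AS array, without a test. The mean of the non-induced miR-22 arrays was above the non-induced NpBI-206AS array for 8 of the 10 genes, beside 53.5% of all genes, and the exceptions were JAG1 (-0.09) and HEY1 (-0.19). The widest differences were those of HES6 (0.69), HES1 (0.60), NOTCH1 (0.55), HEYL (0.50) and NOTCH3 (0.49), and 0 of the 10 reached 2-fold, beside 0.402% of all genes. The gap between the non-induced miR-22 replicates was wider than this difference for HES1 (0.70) and NOTCH3 (0.94). It was narrower for HES6 (0.47), NOTCH1 (0.25) and HEYL (0.05). Between non-induced miR-22 replicate 2 and non-induced NpBI-206AS cells, both of prefix R587, the HES1 difference was 0.25, that of HES6 0.46, that of HEYL 0.47 and that of NOTCH3 0.017. In order of level, HES1 and HEYL both ran from induced miR-22 through non-induced miR-22 and induced NpBI-206AS to non-induced NpBI-206AS cells. For HES1 the last 3 groups lay within the gap between the non-induced miR-22 replicates except the lowest, which was 0.25 below replicate 2. For JAG1 the 3 control groups differed by at most 0.09, less than the 0.14 between those replicates.

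A further 57 measured genes of the pathway, from lists of 61, were read beside these members. On miR-22 induction 1 of them rose and 1 fell, shares close to the 1.73% and 1.53% of all genes, and their median difference was -0.018. Both are corepressors that act with RBPJ. SPEN, a scaffold that recruits histone deacetylases to RBPJ, read 7.56 and 7.74 in induced against 9.20 and 8.81 in non-induced miR-22 cells, and 8.46 in induced against 8.63 in non-induced NpBI-206AS cells. It fell by 1.35 on the log2 scale (SE 0.19, limma adjusted p = 0.032), a 2.56-fold difference, with both induced miR-22 arrays below all the others. KDM5A, a histone demethylase that binds RBPJ, read 9.57 and 9.74 in induced against 8.81 and 8.74 in non-induced miR-22 cells, and 8.80 in induced against 8.77 in non-induced NpBI-206AS cells. It rose by 0.87 (SE 0.15, adjusted p = 0.048), or 0.81 and 0.83 after a second quantile normalization and after cyclic loess, where its adjusted p was 0.055 and 0.051. With 1 of the 4 miR-22 arrays left out, the difference lay between -1.55 and -1.16 for SPEN and between 0.79 and 0.96 for KDM5A. Such fits leave 1 array in a group, and neither call could be tested by them. Of the 7 measured corepressor genes, 6 were lower on average, among them TLE1 (-0.48, adjusted p = 0.14).

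Genes of receptor cleavage had a median difference of 0.59, with 0 of 7 called in limma and, without adjustment, 4 higher and 1 lower, beside 12.1% and 9.12% of all genes. The gamma-secretase subunit genes APH1B and PSENEN had the largest differences, 0.90 (SE 0.23, limma adjusted p = 0.092) and 0.80 (SE 0.19, adjusted p = 0.084). PSENEN read 10.07 and 9.92 in induced against 9.00 and 9.39 in non-induced miR-22 cells, and 9.47 in both conditions of NpBI-206AS cells. Against all 4 controls limma called 10 of the 57 genes, 5 higher and 5 lower, shares close to the 7.78% and 6.31% of all genes called in that comparison, and the ones not yet named are given here because their values had been seen. Higher were PSEN2, a catalytic subunit of gamma-secretase (0.84, adjusted p = 0.008), PSENEN (0.66, adjusted p = 0.035), the protease ADAM17 (0.57, adjusted p = 0.046), KDM5A and the ubiquitin ligase gene DTX4 (0.48, adjusted p = 0.046). Lower were SPEN, TLE1 (-0.50, adjusted p = 0.02), the acetyltransferases KAT2A (-0.74, adjusted p = 0.014) and KAT2B (-0.75, adjusted p = 0.018), and NCSTN, the gamma-secretase subunit that holds the substrate (-0.47, adjusted p = 0.031). Subunits of gamma-secretase thus differed in both directions. The SPEN call was lost without induced replicate 1 or 2 (differences -1.04 and -1.21), while KDM5A passed with any 1 miR-22 array left out. Values of the others with an array left out were not read.

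**Figure D4:**
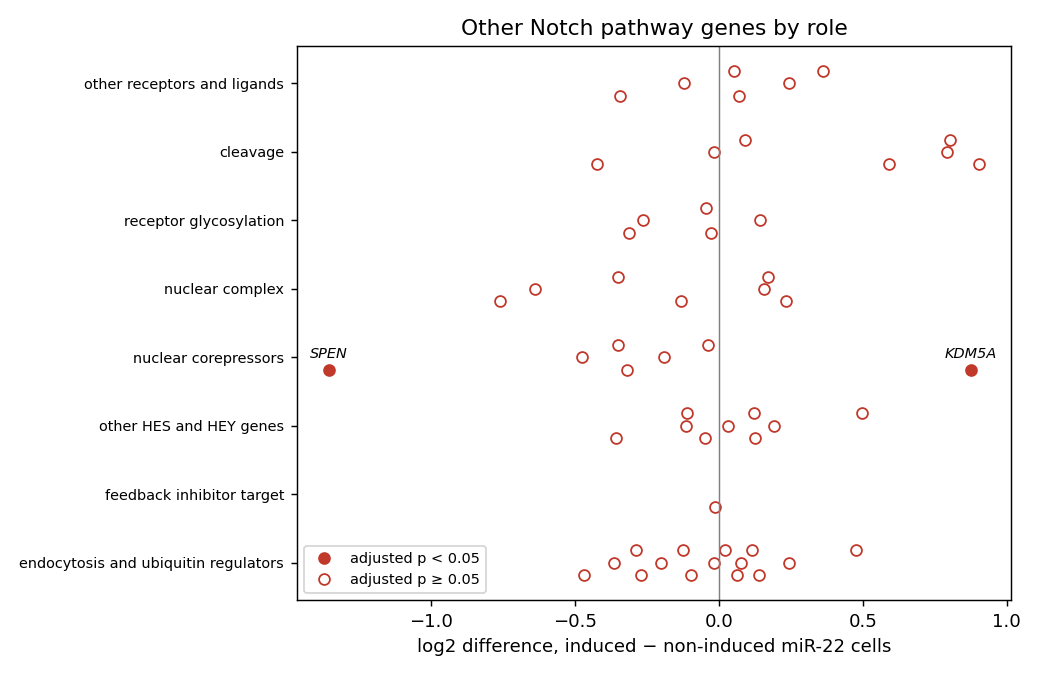
Log2 difference on miR-22 induction of 57 further pathway genes by role, 1 point per gene, filled where the adjusted p is under 0.05. SPEN (-1.35) and KDM5A (0.87) are the filled points, and the cleavage genes form the row with the highest median, 0.59.

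In the remaining lists limma called 0 genes on miR-22 induction, beside 1.73% of all genes higher and 1.53% lower. Measured were 6 other receptors and ligands, 5 glycosylation genes and 7 genes of the nuclear complex. The rest were 9 other HES and HEY genes, NRARP, and 15 endocytosis and ubiquitin genes. The unadjusted threshold below is p under 0.05, which 12.1% of all genes passed as higher and 9.12% as lower. The other receptors and ligands had a median of 0.062 and 0 genes without adjustment; DNER (0.36, adjusted p = 0.49) and DLK2 (-0.34, adjusted p = 0.36) differed most. The glycosylation genes, which tune ligand choice, had a median of -0.044 and 0 at that unadjusted threshold, led by POFUT1 (-0.31, adjusted p = 0.43) and LFNG (-0.26, adjusted p = 0.45). The nuclear complex had 0 higher and 2 lower at the unadjusted threshold, KAT2A (-0.76, adjusted p = 0.095) and KAT2B (-0.64, adjusted p = 0.12), while RBPJ itself differed by 0.16 (SE 0.15, adjusted p = 0.62). Other HES and HEY genes had a median of 0.032 and 1 higher at the unadjusted threshold, HES3 (0.50, adjusted p = 0.18), followed by BHLHE40 (-0.36, adjusted p = 0.38). NRARP, a Notch target that feeds back on the receptor, read 6.00 and 5.73 in induced against 5.89 and 5.87 in non-induced miR-22 cells, a difference of -0.013 (SE 0.17, interval -0.43 to 0.40, adjusted p = 0.98). The endocytosis and ubiquitin genes had a median of -0.016 and 1 higher at the unadjusted threshold, DTX4 (0.48, adjusted p = 0.15), beside NEDD4 (-0.47, adjusted p = 0.27).

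Regulators of muscle identity were read as well, because Notch signalling is known to restrain them. MYOD1, a master regulator of the lineage, read 8.87 and 9.02 in induced against 9.22 and 9.74 in non-induced miR-22 cells, and 9.32 in induced against 9.37 in non-induced NpBI-206AS cells (difference in miR-22 cells -0.53, SE 0.22, limma adjusted p = 0.24). MYOG, which drives terminal differentiation, read 9.50 and 9.01 in induced against 9.79 and 10.11 in non-induced miR-22 cells, and 8.57 in induced against 8.86 in non-induced NpBI-206AS cells (-0.69, SE 0.23, adjusted p = 0.16). Its induced miR-22 arrays lay below the non-induced ones but above both NpBI-206AS arrays. PAX7, a factor of muscle stem cells, differed by 0.33 (SE 0.19, adjusted p = 0.39), and MYF5, near the lower quartile on every array, by 0.039 (SE 0.15, adjusted p = 0.92). Of 9 markers of skeletal muscle and rhabdomyosarcoma 7 were lower, and the median difference of the 9 was -0.69, beside 0.0072 for all genes. Of the 9, 1 fell, the intermediate filament gene DES (-1.07, SE 0.17, adjusted p = 0.038), beside 1.53% of all genes. Against all 4 control arrays 3 of the 9 fell in limma, beside 6.31% of all genes. They were DES (-0.88, adjusted p = 0.017), the acetylcholine receptor subunit gene CHRND (-0.94, adjusted p = 0.042) and the cadherin gene CDH15 (-0.57, adjusted p = 0.044). The summed linear level of those markers was 5157 and 4813 in induced against 6270 and 7723 in non-induced miR-22 cells, and 6267 in induced against 5558 in non-induced NpBI-206AS cells. Their part in the differences of the Notch genes was not tested.

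The genes most like each member over the 6 arrays were sought among 2302 genes spanning at least 1 on the log2 scale, for the 5 members that did so. JAG1 was most like ZNF699, ENDOD1 and ZNF436 (Pearson r = 0.9967, 0.9937 and 0.9929). HES1 was most like TSSC4, IGSF3 and CYP27A1 (r = 0.994, 0.9931 and 0.9929), and HEYL was most like PLPPR5, PMVK and FLOT2 (r = 0.9928, 0.9859 and 0.9776). NOTCH3 and HES6 shared their most similar gene, SERINC2 (r = 0.9642 and 0.966), followed by DND1 and CCDC3 for NOTCH3 (r = 0.9524 and 0.9502) and by ACVRL1 and MCRIP1 for HES6 (r = 0.9602 and 0.9572). With 6 arrays that share groups and code prefixes, such values describe the arrays and carry no test.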

How the data were processed

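RNA of 6 RD18 cultures was hybridised to 1 Affymetrix array each. Per the submitters' processing notes, the authors used RMA and Partek (versions not stated there) to make the deposited log2 values. RMA subtracts background, equalises the arrays' distributions and summarises probes, and so hides a shift common to all transcripts. The library file was not given in the sources used here. Of 33297 rows, 19460 carried a single symbol on the platform annotation, 1754 several and 12083 none; symbols were updated by gene ID (19429 matched, GRCh38.p14). A gene was read from its row with the highest mean.

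Tests used limma 3.58.1 in R 4.3.3, two-sided, adjusted by Benjamini-Hochberg over every row: a mean per group over 6 arrays (2 residual and 3.62 prior degrees of freedom), and, for all controls, 2 groups (4 residual). NpBI-206AS cells alone, with 1 array per condition, were given as differences. The series calls the miR-22 replicates biological. Fits were run on simulated arrays with independent noise and known shifts. These held no batch, line or replicate structure, so they checked the fitting and not the design. The 10 genes and all lists were chosen with earlier results of these data known. Named were all 10 genes, list members that passed or, where none passed, the 2 with the largest difference, and the 3 genes most like each member. Alternatives changed scaling, filter, moderation, rows per gene, pairing and replicates. Promoter windows and microRNAs came from RefSeq tables; figures used matplotlib.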

Additional observations from a re-analysis of the deposited data

Results flagged for a closer look

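For JAG1 and JAG2 the sign of the difference was not the same in the 2 lines, although JAG1 hardly differed in NpBI-206AS cells. JAG1 was higher on both induced than on both non-induced miR-22 arrays, while the induced NpBI-206AS array was 0.0028 below its non-induced partner, a sign that turned with the scaling of the arrays. The difference between the responses was 0.91 (limma adjusted p = 0.46). JAG2 was lower on both induced than on both non-induced miR-22 arrays, while the induced NpBI-206AS array was 0.26 above the non-induced one, and the difference between the responses was -0.83 (SE 0.32, limma adjusted p = 0.55). Neither difference passed the test, which rests on 1 array per condition in NpBI-206AS cells.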

How the results depend on the processing

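On miR-22 induction 1200 rows passed. Without 1 miR-22 array the count was 0 in each case, against 3526 to 8113 rows without adjustment; it was 2609 without the dimmest 50 percent of rows, 1818 with 1 averaged row per gene (18417 tested) and 2955 with the replicate number as a block. Same-numbered arrays deviated together only weakly (r = 0.1957 over rows), and with 2 pairs this does not establish a pairing. Under the block HES1 had an adjusted p of 0.029. HES1 also passed without the dimmest rows (0.02) and with averaged rows (0.017), as did HEYL (0.041 and 0.038); fewer rows were tested there, and the differences were the same. JAG1 passed under 8 of 12 alternatives, with an adjusted p of 0.05 after rounding under cyclic loess, and failed in the 4 that left out an array. Against all controls 4576 rows passed, and 897 to 7463 without 1 array (897 without induced replicate 1, 1492 without 2, 7463 without non-induced replicate 1, 2641 without 2); JAG1 passed under all 10 alternatives (adjusted p 0.0016 to 0.045), and HES1 and HEYL under 8 each. Against induced NpBI-206AS cells 130 rows passed, 0 without any 1 miR-22 array, 747 without dim rows, 227 with trend and robust moderation and 596 with averaged rows; HES1 passed without dim rows (0.041) and with averaged rows (0.034). The difference between the responses had 0 rows, or 4 with averaged rows. Untreated lines differed 2-fold in 74 genes, and in 56 to 327 without replicate 1 or 2 of the miR-22 line. Centring arrays on their medians turned 531 higher and 669 lower rows into 718 and 574, and against all controls 2103 and 2473 into 2628 and 2042.

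Directions turned where differences were small. On miR-22 induction, leaving out 1 array moved NOTCH2 between -0.018 (without non-induced replicate 2) and 0.58, and NOTCH3 between -0.12 (likewise) and 0.83. Against all controls NOTCH1 (-0.0027) lay between -0.14 and 0.14 without 1 array, being above 0 without induced replicate 2 (0.14), non-induced replicate 1 (0.12) or 2 (0.034); it was 0.057 with centring and 0.018 after quantile normalization. In the difference between the responses, NOTCH3 (-0.0092) lay between -0.48 and 0.46 without 1 array (0.17 without induced replicate 2) and at 0.089 with centring; DLL1 lay between -0.018 and 0.49, HES6 between -0.40 and 0.066 and NOTCH2 between -0.17 and 0.43. The turn came without non-induced replicate 1 for DLL1 and HES6, and without replicate 2 for NOTCH2. The cause was not tested. With 1 or 2 arrays per group, differences of the size seen for DLL1 or HES6 could not be told from replicate spread.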

Other observations

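The deposited HES1 value was identical on both induced miR-22 arrays to every digit given (7.5228 at 4 decimals), so its SD there is 0 and its error in the comparison within miR-22 cells comes from the non-induced replicates and from the moderation across rows. Such identity was not particular to HES1. VWF read 4.5673 on both induced and GFAP 5.7896 on both non-induced miR-22 arrays. Among the 10 genes, HES1 and HEYL followed each other over the 6 arrays (Pearson r = 0.9398), NOTCH3 followed HES6 (r = 0.9204) and NOTCH2 (r = 0.9153), and DLL1 followed HEY1 (r = 0.9152). JAG2 ran against HEY1 (r = -0.8566) and JAG1 (r = -0.8063). These are descriptions of 6 arrays in 4 groups, chosen from 45 pairs after their values were seen.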
